A study of Homo sapiens with 6 samples.

Results

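MHC class I molecules display fragments of a cell's own proteins on its surface, where CD8+ T cells and NK cells read them. Of the 38637 genes in the deposited table, 9 genes of this pathway were taken by symbol: the heavy chains HLA-B, HLA-C and HLA-E, the light chain B2M, the peptide transporter subunits TAP1 and TAP2, tapasin (TAPBP), the peptide-trimming enzyme ERAP1 and the transactivator NLRC5. All 9 were found, and all 9 passed the filter on low values. The rule that takes them names symbols and uses no measured value, although the list itself was drawn up with earlier results of these data known.

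RNA was sequenced from OVCAR8, an established human ovarian cancer cell line labelled wild type, so both groups come from the same line. In the control group the cells received DMSO, the solvent, and in the other group 2 nM pladienolide B, with 72 h of treatment in both and 3 samples per group. Pladienolide B binds SF3B1, a subunit of the U2 snRNP that recognises the branch point of introns, and inhibits splicing. The comparison asks which transcripts differ after SF3B1 is inhibited in these cells. The labels do not say that the samples came from separate cultures, so p-values measure the spread between these samples, which may be technical. In bulk RNA of a cell line, a change in RNA per cell and a change in the mix of cells cannot be told apart.

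The class I pathway runs in steps. Proteasomes cut proteins into peptides, and in cells exposed to interferon the subunits PSMB8, PSMB9 and PSMB10 replace the constitutive catalytic subunits to form the immunoproteasome. TAP1 and TAP2 together pump the peptides into the endoplasmic reticulum (ER), where ERAP1 trims them and tapasin helps to load them onto a heavy chain paired with B2M. NLRC5, brought to DNA by the RFX complex, is the main transactivator of class I genes, and interferon and NF-kB signals raise their transcription. HLA-E presents mostly leader peptides of other class I chains and is the ligand of the NK cell receptor NKG2A.

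Recovered reads on genes ranged from 22621338 to 26130882 per sample, and DMSO replicate 2 differed most from the other DMSO samples (chi-square per degree of freedom of 7.82 and 7.74 against 2.01 between the other two). The ovarian epithelial genes PAX8, KRT7, KRT8 and KRT18 were abundant, the summed level of the 8 epithelial markers ran from 3076 to 3246 CPM (reads scaled to the size of the library) in DMSO and from 3209 to 3850 in pladienolide B, and WT1, KRT19 and MUC16 were near the detection limit, with at most 32 reads in any sample. Within that sum KRT7 fell (log2 fold change -0.64, limma adjusted p = 7.7e-06), and KRT8 and KRT18 rose (0.27 and 0.29). The 4 fibroblast markers summed to 282 to 290 CPM in DMSO and 239 to 272 in pladienolide B, with COL1A1 and PDGFRB lower (-0.21 and -0.34, limma adjusted p = 0.0014 and 0.026). COL1A1 made up most of this sum, with 5375 to 7235 reads per sample, against 169 to 283 for PDGFRB and 19 to 33 for LUM. DCN had at most 2 reads in a sample. PDGFRB lost its call in 5 alternatives (limma adjusted p from 0.052 to 0.13), and KRT18 without the variance trend (0.057). The 3 endothelial markers summed to 1.88 to 2.84 CPM in DMSO and 2.44 to 3.74 in pladienolide B. The part of these markers in the results below was not tested. The 10 leukocyte markers summed to 3.68 to 4.13 CPM in DMSO and 3.4 to 5.1 CPM in pladienolide B, with CD3E at 0 reads in all samples, which allows up to 3 reads per sample. CD8A had 32 to 56 reads per sample. A count of 0, like the intervals on counts, covers counting error only.

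The start regions of 5 genes are shown because the class I genes and B2M share an arrangement of short motifs there that the other windows lack. The sequences are from RefSeq (GRCh38.p14), each 300 bases long, 5′ to 3′ on the gene's own strand, with 250 bases before the transcription start and 50 bases from it, and 7 of the 9 genes had an entry. HLA-B lies at chr6:31357130-31357429 on the minus strand, HLA-C at chr6:31272043-31272342 minus, B2M at chr15:44711267-44711566 plus, TAP1 at chr6:32853655-32853954 minus and ERAP1 at chr5:96807896-96808195 minus. TAP1 and ERAP1 had 2 windows each, and the window at the start of the canonical transcript is shown. Capitals mark matches, on either strand, to an interferon-stimulated response element (ISRE, here GAAA, any 2 bases, then GAAA), an NF-kB site (GGGA, any 4 bases, then CC), TGACG (the core of the X2 box bound by CREB and ATF1), CCAAT (the Y box bound by NF-Y) and TTTCACTT, a shorter interferon-response core. TTTCACTT can overlap the ISRE.
HLA-B: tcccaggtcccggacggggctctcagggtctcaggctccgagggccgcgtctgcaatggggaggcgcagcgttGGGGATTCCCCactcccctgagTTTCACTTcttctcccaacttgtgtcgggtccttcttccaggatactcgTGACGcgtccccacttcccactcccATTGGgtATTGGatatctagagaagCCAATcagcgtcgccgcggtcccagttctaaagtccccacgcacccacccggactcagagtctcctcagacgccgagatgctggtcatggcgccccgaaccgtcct
HLA-C: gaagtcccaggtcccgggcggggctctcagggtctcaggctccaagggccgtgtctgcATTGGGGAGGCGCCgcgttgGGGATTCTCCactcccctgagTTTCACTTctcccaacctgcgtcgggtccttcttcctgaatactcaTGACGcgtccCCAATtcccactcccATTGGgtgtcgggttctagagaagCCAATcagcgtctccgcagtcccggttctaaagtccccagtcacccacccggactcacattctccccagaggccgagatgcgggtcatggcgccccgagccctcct
B2M: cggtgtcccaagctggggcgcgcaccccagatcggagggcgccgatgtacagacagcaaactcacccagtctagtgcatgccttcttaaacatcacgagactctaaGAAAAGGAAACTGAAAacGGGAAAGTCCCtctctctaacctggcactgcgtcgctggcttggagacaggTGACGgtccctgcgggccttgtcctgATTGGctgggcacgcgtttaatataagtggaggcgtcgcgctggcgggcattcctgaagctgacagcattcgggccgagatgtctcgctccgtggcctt
TAP1: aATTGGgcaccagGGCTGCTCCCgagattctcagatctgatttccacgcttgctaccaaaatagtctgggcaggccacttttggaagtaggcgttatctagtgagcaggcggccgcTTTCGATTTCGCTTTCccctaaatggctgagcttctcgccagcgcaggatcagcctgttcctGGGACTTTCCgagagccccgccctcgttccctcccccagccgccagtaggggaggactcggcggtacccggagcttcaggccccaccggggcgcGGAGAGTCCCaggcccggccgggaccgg
ERAP1: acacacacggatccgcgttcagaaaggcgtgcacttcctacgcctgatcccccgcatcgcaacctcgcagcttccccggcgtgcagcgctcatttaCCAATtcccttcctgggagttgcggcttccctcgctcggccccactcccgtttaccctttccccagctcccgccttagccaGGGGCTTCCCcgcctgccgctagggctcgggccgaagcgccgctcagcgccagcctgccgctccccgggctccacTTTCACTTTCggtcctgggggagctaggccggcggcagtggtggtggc

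In HLA-B and HLA-C, a TGACG is followed 25 bases on by ATTGG, the reverse of CCAAT, and in B2M the spacing is 26 bases. This order, with 15 to 35 bases between the starts of the motifs, was found in 3 of the 7 windows and in 0.41% of 35116 promoters of the same length. The spacing and the TTTCACTT core, which 1.62% of all promoters hold, were chosen after the sequences had been seen. HLA-B and HLA-C hold TTTCACTT upstream of their TGACG and do not match the ISRE pattern. That pattern was found in 5 of the 7 windows (B2M, TAP1, TAP2, TAPBP and ERAP1) and in 3.57% of all promoters, and in 4 of 5 windows of the immunoproteasome and PA28 genes. The NF-kB pattern was in 6 of the 7 windows and in 25.6% of all promoters. The genes with the ISRE pattern include TAP1, TAP2 and B2M, which did not pass the test below, and ERAP1 and TAPBP, which did. A match is a run of letters and was not tested as a binding site.

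Of the 9 genes, 5 differed between the groups at an adjusted p below 0.05 (limma on log2(value + 1), Benjamini-Hochberg over 16178 tested genes): HLA-B, HLA-C, TAPBP and ERAP1 were lower after pladienolide B and HLA-E was higher. Across all tested genes 47.6% were called, 25.2% lower and 22.4% higher, so a count of 5 of 9 is near that background. The 3 samples of a group did not overlap those of the other for the same 5 genes, 4 with lower and 1 with higher values, as was so for 28.8% and 26.4% of all tested genes (55.3% in all). The median log2 fold change was -0.08 over the 9 genes and -0.004 over all tested genes, with an interquartile range of -0.25 to 0.21. All values given below as adjusted reads are reads scaled to a common library size, as the authors deposited them.

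**Figure D1:**
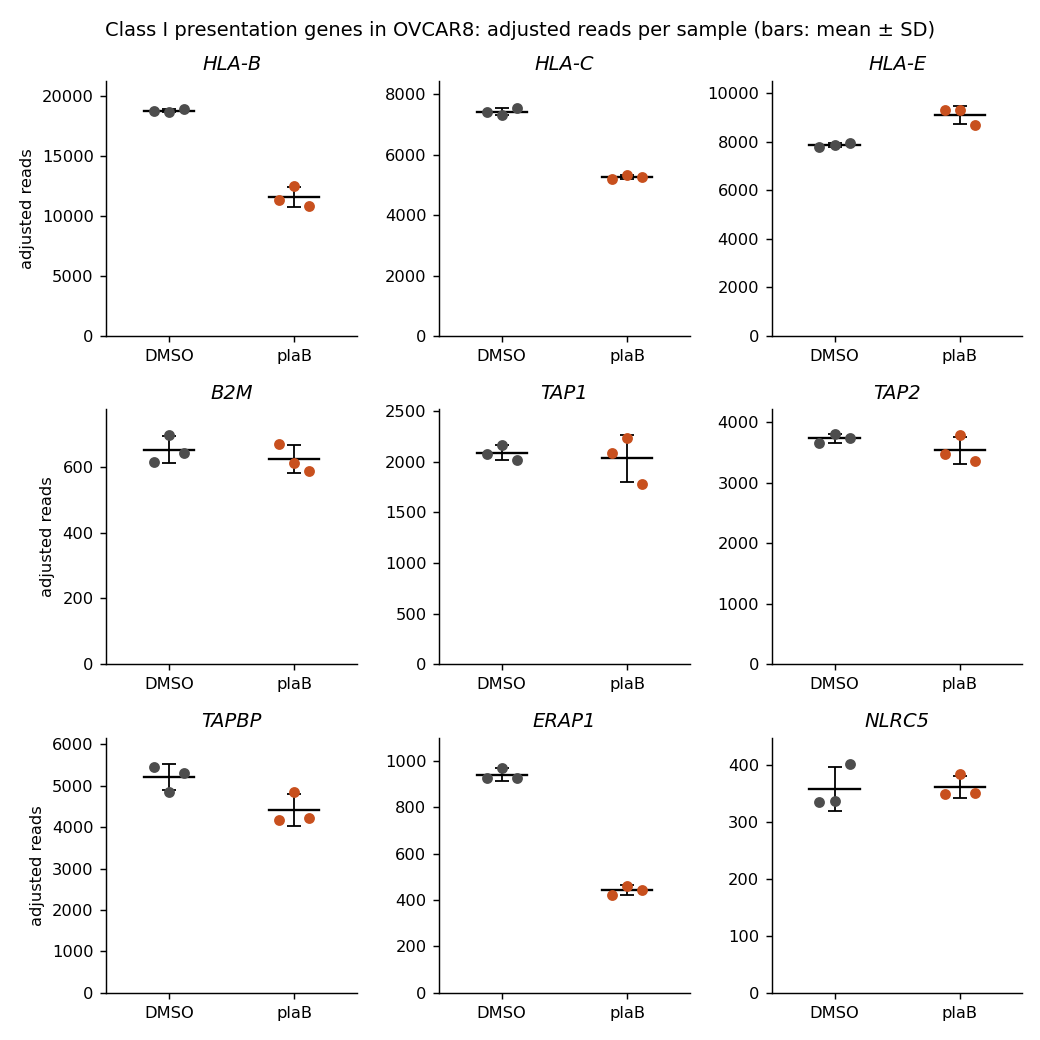
Adjusted reads (vertical axes, from 0, a separate scale for each gene) of the 9 genes in the DMSO and pladienolide B (plaB) samples, with each point a sample and bars for the mean ± SD of 3. HLA-B, HLA-C, ERAP1 and, only just, TAPBP were lower in each pladienolide B sample than in every DMSO sample. HLA-E was higher in each, and B2M, TAP1, TAP2 and NLRC5 overlapped.

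HLA-B, the most abundant of the 9 genes (chr6:31353875-31357179, minus strand), had 18812, 18706 and 18942 adjusted reads in DMSO and 11374, 12516 and 10876 in pladienolide B. The pladienolide B samples were all well below the DMSO samples, at 61.6% of their mean. The log2 fold change was -0.70 ± 0.05 (SE, 95% interval -0.80 to -0.60), with limma adjusted p = 3.8e-09. Of the tested genes, 5.45% had a lower log2 fold change.

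HLA-C (chr6:31268749-31272092, minus strand) presents peptides to T cells and is the main ligand of KIR receptors on NK cells. Its adjusted reads were 7424, 7312 and 7554 in DMSO and 5206, 5329 and 5270 in pladienolide B. The groups lay far apart, the pladienolide B mean being 70.9% of the DMSO mean. The log2 fold change was -0.50 ± 0.04 (limma adjusted p = 2.4e-08).

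HLA-E (chr6:30489508-30494194, plus strand) went the other way. It had 7798, 7875 and 7938 adjusted reads in DMSO and 9320, 9303 and 8695 in pladienolide B, so that the lowest pladienolide B sample exceeded the highest DMSO sample. The pladienolide B mean was 116% of the DMSO mean, with a log2 fold change of 0.21 ± 0.04 (95% interval 0.12 to 0.30, limma adjusted p = 0.00041). These heavy chain genes are near-identical in sequence over long stretches, and the sources used here do not say how reads that match more than 1 gene were counted, so the split of reads between them is uncertain.

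B2M (chr15:44711492-44718145, plus strand), the invariant light chain that every classical class I molecule needs, did not pass the test. Its adjusted reads were 615, 697 and 642 in DMSO and 669, 612 and 586 in pladienolide B. The groups overlapped, and the 95% interval of the log2 fold change of -0.07 ran from -0.22 to 0.09 (limma adjusted p = 0.48). That interval does not reach the values of HLA-B and HLA-C.

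TAP1 (chr6:32845209-32853704, minus strand) had 2080, 2168 and 2020 adjusted reads in DMSO and 2082, 2235 and 1783 in pladienolide B. TAP2 (chr6:32821831-32838739, minus strand) had 3652, 3795 and 3733 in DMSO and 3464, 3778 and 3355 in pladienolide B. Neither subunit of the transporter passed the test: the log2 fold change was -0.04 for TAP1 (95% interval -0.18 to 0.09, limma adjusted p = 0.61) and -0.08 for TAP2 (-0.18 to 0.02, limma adjusted p = 0.19). Without pladienolide B replicate 2 the TAP2 value was -0.13 with limma adjusted p = 0.045. PSMB8-AS1, an RNA on the opposite strand, shares 1292 bases with the TAP1 gene span and did not pass the test (log2 fold change 0.11, limma adjusted p = 0.49). Its 155 to 176 reads per sample cannot be told apart from those of TAP1 if strand was not used in counting, which the sources do not state.

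TAPBP (chr6:33299694-33314254, minus strand) encodes tapasin, which bridges the transporter and the empty heavy chain. Its adjusted reads were 5458, 4857 and 5307 in DMSO and 4176, 4848 and 4213 in pladienolide B. The groups were only just apart, since the lowest DMSO sample and the highest pladienolide B sample differed by fewer than 10 adjusted reads, and the mean was 84.7% of that in DMSO. The log2 fold change was -0.24 ± 0.06 (limma adjusted p = 0.0022), and without the variance trend in limma the adjusted p was 0.065.

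ERAP1 (chr5:96760273-96935983, minus strand) fell most of the 9 genes. It had 925, 970 and 924 adjusted reads in DMSO and 420, 462 and 443 in pladienolide B, and every treated sample lay far below every DMSO sample. The log2 fold change was -1.09 ± 0.07 (95% interval -1.23 to -0.95, limma adjusted p = 1.3e-09), at 47% of the DMSO mean. Of all tested genes, 1.98% were called at least 2-fold lower. CAST, the calpain inhibitor calpastatin, lies on the opposite strand over 14411 bases of the ERAP1 span and fell too (7702 ± 121 against 11778 ± 182 adjusted reads, SD, n = 3; log2 fold change -0.61, limma adjusted p = 1.6e-09). CAST had 7139 to 12559 reads per sample, many more than ERAP1, and counting settings by strand are not stated, so how much of either change is shared reads was not tested. ERAP2, the other ER aminopeptidase, also overlaps ERAP1 and had a log2 fold change of -0.28 (limma adjusted p = 0.093), with the groups apart. ERAP2 lies at chr5:96875939-96919716, in the part of the ERAP1 span upstream of the start region shown above.

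NLRC5 (chr16:56989557-57083520, plus strand) had 335, 336 and 402 adjusted reads in DMSO and 348, 383 and 350 in pladienolide B. The groups overlapped, and the log2 fold change was 0.01 (95% interval -0.18 to 0.21, limma adjusted p = 0.91). The interval reaches from 0.88-fold to 1.16-fold, and a change within it was not detectable here.

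**Figure D2:**
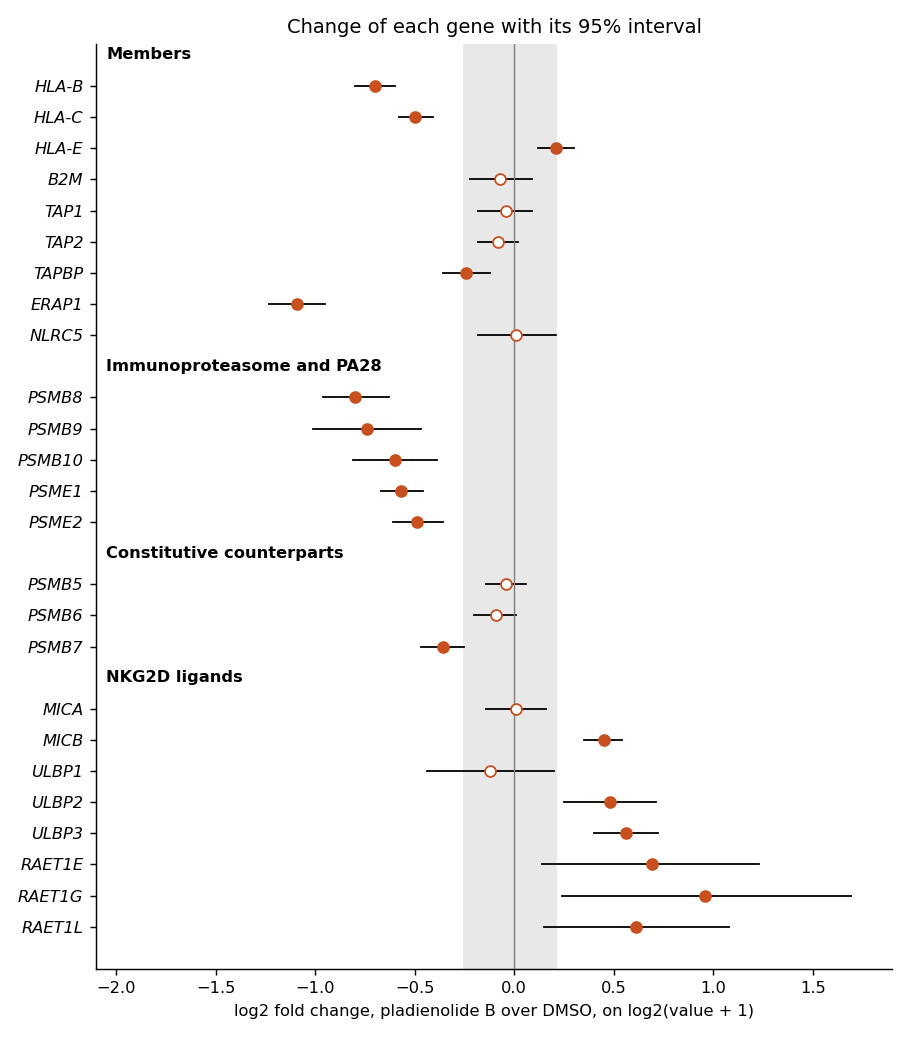
Pladienolide B over DMSO as a log2 fold change (horizontal axis, points with 95% intervals, n = 3 per group) for the 9 members, the immunoproteasome and PA28 genes, the constitutive counterparts and the NKG2D ligands, with filled points at limma adjusted p below 0.05 and a grey band for the interquartile range of all tested genes. ERAP1 at -1.09 is the lowest of the members, and the immunoproteasome and PA28 genes lie between -0.80 and -0.49.

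Levels between genes were compared per length, as reads per kilobase of the canonical GENCODE v44 transcript and scaled to the library's reads on genes (RPKM). In DMSO the order was HLA-B (494 ± 9.73), HLA-C (194 ± 5.67), HLA-E (125 ± 2.05), TAPBP (60.9 ± 4.46), TAP1 (31.4 ± 0.729), B2M (27.9 ± 1.41), TAP2 (26.6 ± 0.3), ERAP1 (7.83 ± 0.103) and NLRC5 (2.13 ± 0.245), each as mean ± SD of 3. On this length B2M and TAP2 did not differ beyond their spread (26.5, 29.3 and 27.7 against 26.3, 26.7 and 26.9). In pladienolide B the only change in order was that HLA-E (148 ± 5.28) stood above HLA-C (141 ± 2.25); the lowest HLA-E sample and the highest HLA-C sample were 142 and 143, so they overlap and their order is not beyond the spread. With the union of all annotated exons as the length, HLA-E (129 ± 4.6) was also above HLA-B (104 ± 7.55) in pladienolide B, so ranks among the heavy chains depend on which length is used. The same holds for B2M and TAP2: on the union length TAP2 (14.5 ± 0.164) lay above B2M (8.42 ± 0.426) in DMSO, beyond their spread. B2M lay below every heavy chain on both lengths. How reads that match several genes were counted is not stated, and its part in the low B2M level, and so in any ratio to B2M, was not tested.

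**Figure D3:**
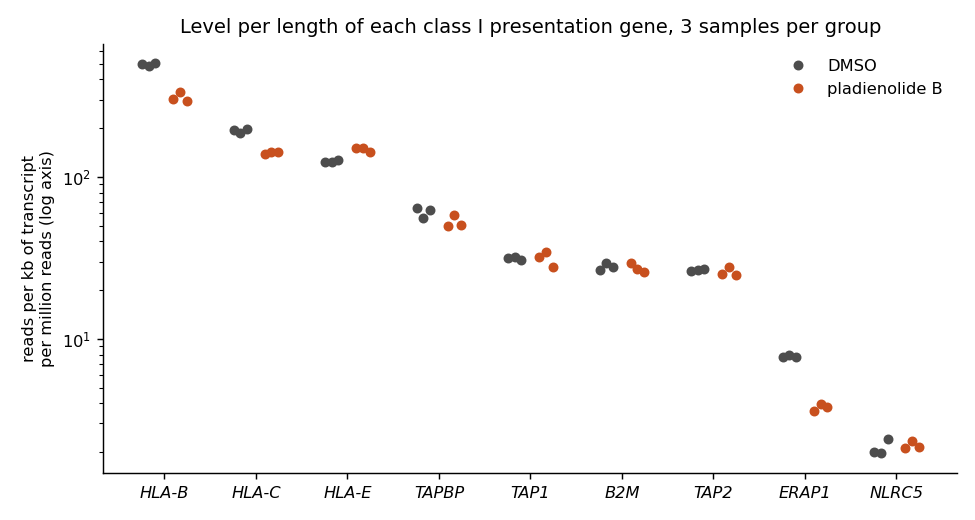
RPKM on the canonical transcript (vertical axis, logarithmic) for each of the 9 genes, ordered by DMSO mean, with 3 points per group. HLA-B is highest, near 494 in DMSO and 312 in pladienolide B, and NLRC5 is lowest, near 2.1 to 2.2.

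Ratios within a library do not depend on the library's scaling, but they do depend on the length used, here that of the canonical transcript. Another length would change the level of each ratio. For ratios and shares that sum several genes it would also change the difference between the groups. HLA-E per HLA-B, per length, was 0.25, 0.254 and 0.253 in DMSO and 0.494, 0.448 and 0.482 in pladienolide B, and HLA-E was 15.3% ± 0.118 of the 3 heavy chains in DMSO and 24.6% ± 0.704 in pladienolide B. HLA-C per HLA-B averaged 0.393 in DMSO and 0.454 in pladienolide B, with no overlap. Heavy chain reads (HLA-B, HLA-C and HLA-E summed, per length) per B2M read were 30.8, 27.1 and 29.9 in DMSO and 20.3, 23.5 and 22.4 in pladienolide B, lower in every pladienolide B sample. TAP1 per TAP2 was 1.18 ± 0.0357 and 1.21 ± 0.0796 (SD, n = 3), with the groups overlapping. No test was run on these ratios, as scores over the members.

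**Figure D4:**
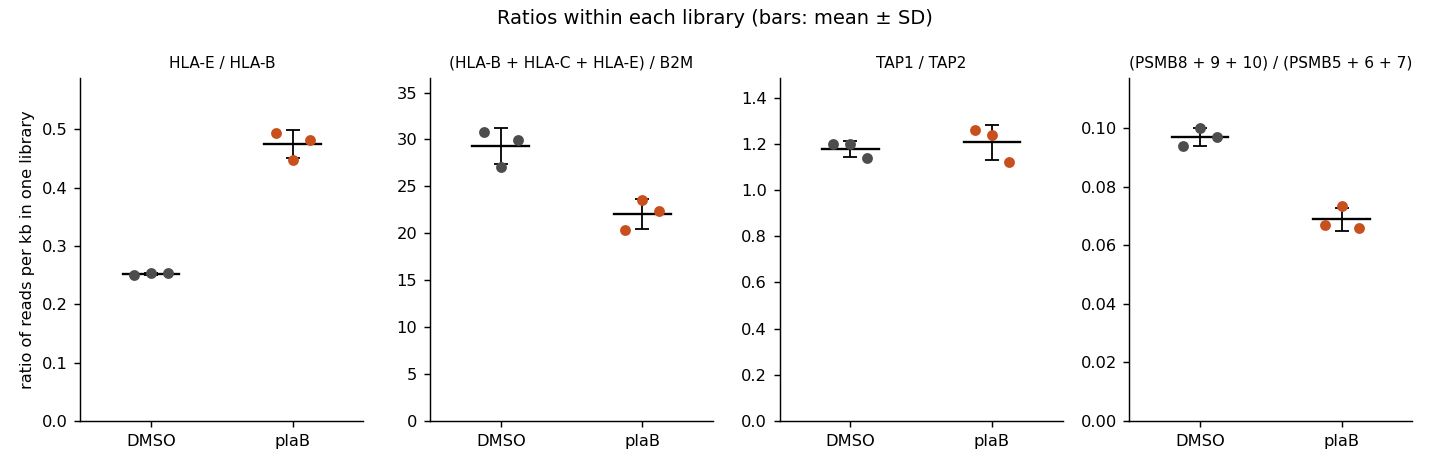
Ratios of reads per kilobase within each library (vertical axes, from 0), with each point a sample and bars for mean ± SD of 3. HLA-E per HLA-B is higher in pladienolide B (0.475 against 0.252), heavy chains per B2M are lower (22.1 against 29.3), TAP1 per TAP2 overlaps, and immunoproteasome per constitutive subunits is lower (0.0688 against 0.097).

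The other genes of the pathway were grouped by role, in 12 lists with 124 genes, of which 119 were in the table and 112 were tested. Among them 27 rose and 40 fell (limma adjusted p below 0.05), which is 24.1% and 35.7% against 22.4% and 25.2% of all tested genes, with a median log2 fold change of -0.04. All 5 genes of the list of immunoproteasome and PA28 subunits, which activate and replace proteasome parts, fell. PSMB8, next to TAP2 and TAP1 on chromosome 6 (529 bases from TAP1), had 816 ± 73.3 adjusted reads in DMSO and 470 ± 40.1 in pladienolide B (log2 fold change -0.80, limma adjusted p = 4.6e-07). PSMB9, which starts 487 bases from TAP1 and is read in the opposite direction, went from 195 ± 15 to 117 ± 13 (log2 fold change -0.74, limma adjusted p = 0.00014), while TAP1 did not pass the test; the difference between neighbours was not tested. PSMB10 and PSME1 had log2 fold changes of -0.60 and -0.57, and PSME2 -0.49. All 5 stayed lower under every alternative.

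Of the constitutive counterparts of these subunits, PSMB7 fell (log2 fold change -0.36, limma adjusted p = 2.2e-05), while PSMB5 and PSMB6 did not pass the test (-0.04 and -0.09). The immunoproteasome subunits per constitutive subunit, per length, were 0.094, 0.1 and 0.0969 in DMSO and 0.0671, 0.0735 and 0.0659 in pladienolide B. Of the 11 other subunits of the 20S proteasome core, 9 fell and 0 rose, by less (median log2 fold change -0.23). The share that fell was 81.8%, against 25.2% of all tested genes. PSMA5 and PSMA1 had the largest falls, -0.46 and -0.44. The count of this list ranged from 4 to 10 over the alternatives.

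Among other class I and class I-like heavy chains, of which 6 were tested, 3 fell, the iron regulator HFE and HLA-F among them, and FCGRT, the neonatal Fc receptor, rose. As shares, 50% fell and 16.7% rose, against 25.2% and 22.4% of all tested genes. HFE had a log2 fold change of -0.72 (limma adjusted p = 0.00015) and FCGRT 0.64 (limma adjusted p = 0.012), on 36.7 to 67.7 adjusted reads. HLA-F at -0.23 lost its call without pladienolide B replicate 2 (limma adjusted p = 0.054). Of 4 class I pseudogenes tested, HLA-H and HLA-V fell (-0.59 and -1.16, limma adjusted p = 3e-06 and 0.0035) and the other 2 did not pass the test. The share that fell was 50%, against 25.2% of all tested genes. As near copies, the pseudogenes share the uncertainty of the split of reads.

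The NKG2D ligands, stress-induced relatives of class I that activate NK cells and carry no peptide, moved the other way: 6 of 8 rose and 0 fell, with a median log2 fold change of 0.52. The share that rose was 75%, against 22.4% of all tested genes. ULBP3 went from 474 ± 18.4 to 700 ± 58 adjusted reads (log2 fold change 0.56, limma adjusted p = 1.1e-05). RAET1E, RAET1G and RAET1L had 11 to 99 reads per sample and log2 fold changes of 0.69, 0.96 and 0.61. Each lost its call under several alternatives. Over the alternatives 3 to 6 genes of this list rose and 0 to 1 fell. ULBP1, named after its values were seen, did not pass the test in the main fit (log2 fold change -0.12, limma adjusted p = 0.54). It had 473, 289 and 516 adjusted reads in DMSO and 404, 360 and 378 in pladienolide B. MICB, the most abundant of these ligands and named after its values were seen, had 2004, 1933 and 1960 adjusted reads in DMSO and 2639, 2739 and 2660 in pladienolide B (log2 fold change 0.45, limma adjusted p = 4.1e-07), while its neighbour MICA had a log2 fold change of 0.01 (95% interval -0.14 to 0.16), a difference between genes that was not tested.

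Among the 8 cytosolic peptidases, which cut or destroy peptides before transport, 5 fell and 1 rose (62.5% and 12.5%). Of all tested genes, 25.2% fell and 22.4% rose. DPP3 had a log2 fold change of -0.57 and NPEPPS of -0.32, while THOP1, which destroys peptides, rose by 0.26 on the log2 scale. Of 12 genes of ER loading, editing and quality control, 4 fell and 1 rose (33.3% and 8.33%). GANAB and UGGT1, which trim and check N-glycans of folding proteins, had log2 fold changes of -0.45 and -0.46, and the chaperone HSP90B1 fell by 0.26 on the log2 scale (limma adjusted p = 0.00055), while the chaperones CALR, CANX and PDIA3, chosen after their values were seen, lay between 0.00 and 0.05.

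The regulators of class I transcription were mixed. Of the 11 genes of the complex on the X and Y boxes, 5 fell and 1 rose, with 3 to 5 falling and 0 to 1 rising over the alternatives. In the main fit 45.5% fell and 9.09% rose, against 25.2% and 22.4% of all tested genes. The histone acetyltransferase KAT2B had a log2 fold change of -0.56 (limma adjusted p = 7.5e-06), NFYB -0.31 and NFYC 0.24, the latter without its call when pladienolide B replicate 1 was left out. RFXAP, a subunit of the RFX complex, had -0.34, and lost its call in 4 alternatives. Among 18 tested genes of interferon and NF-kB input, 6 rose and 4 fell (33.3% and 22.2%), with 2 to 6 rising over the alternatives. The share that fell was near the 25.2% of all tested genes. JAK2, IFNAR2, IRF2 and TYK2 fell (-0.51, -0.33, -0.30 and -0.23). RELA, the p65 subunit of NF-kB, and TRIM28 rose (0.23 each), as did IFNGR1, STAT2, PTPN2 and IFNGR2 (0.17, 0.17, 0.16 and 0.14). The genes that rose were named after their values were seen. Whether these changes raised or lowered interferon or NF-kB signals was not tested. The interferon genes IFNB1 and IFNG were at 0 reads in every sample, which allows up to 3 reads per sample.

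Of 14 genes of turnover and repression of class I molecules, 9 rose and 2 fell (median log2 fold change 0.19). As shares, 64.3% rose and 14.3% fell, against 22.4% and 25.2% of all tested genes. SUSD6 and TMEM127, membrane proteins that direct class I molecules to lysosomes, rose by 0.84 and 0.39 on the log2 scale. Their partner WWP2, named after its values were seen, had a log2 fold change of -0.06 (limma adjusted p = 0.36). The membrane ubiquitin ligase MARCHF9 had 0.80, from 167 ± 15.7 to 290 ± 19.5 adjusted reads (SD, n = 3; limma adjusted p = 1.2e-05). Among 12 tested class II genes, HLA-DMA and HLA-DMB rose (0.44 and 0.81, limma adjusted p = 0.0035 and 0.014) and the other 10 did not pass the test. The share that rose, 16.7%, was below the 22.4% of all tested genes. HLA-DMB lost its call without DMSO replicate 3 (log2 fold change 0.52, limma adjusted p = 0.078), without pladienolide B replicate 1 (adjusted p = 0.057) and without the variance trend (adjusted p = 0.071).

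In all, 6 of the 9 genes lie in the MHC region of chromosome 6, here chr6:29723434-33314254, from HLA-F to TAPBP. Of its 145 tested genes, 22.8% rose and 25.5% fell, close to the 22.4% and 25.2% of all tested genes, and the median log2 fold change was 0.01. Without the members the shares were 23% and 24.5%. The falls of HLA-B and HLA-C stood between genes that rose, fell and did not pass the test.

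**Figure D5:**
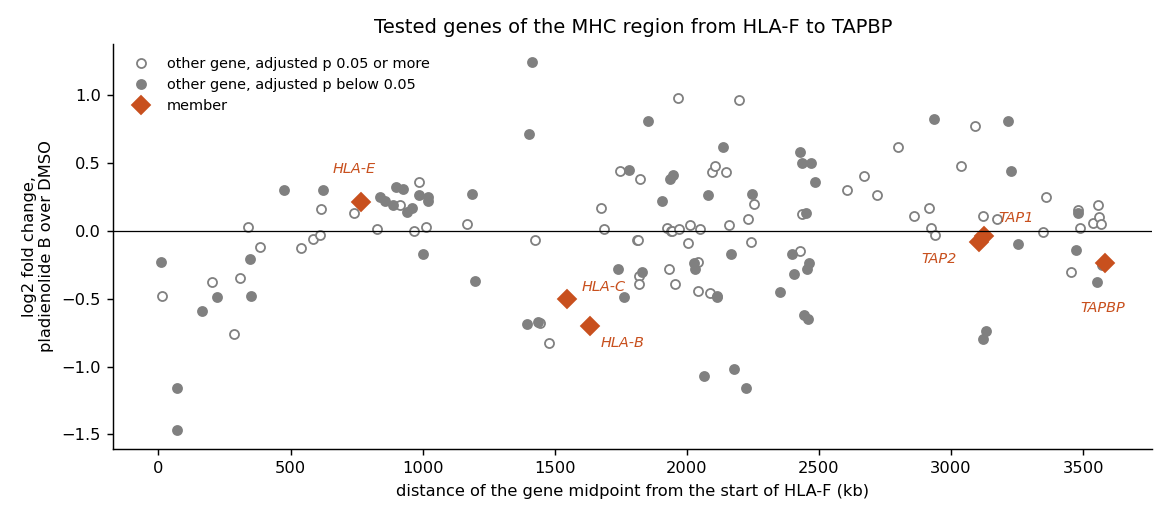
Pladienolide B over DMSO as a log2 fold change (vertical axis) against the distance of each gene's midpoint from the start of HLA-F in kilobases (horizontal axis), for 145 tested genes of the MHC region; diamonds are members and filled grey points are other genes at limma adjusted p below 0.05. HLA-B and HLA-C lie below 0, HLA-E above it, and TAP1 and TAP2 near it.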

How the data were processed

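RNA was extracted with Magzol, enriched for poly(A) RNA and sequenced from OVCAR8 cells, 3 samples per group. Per the paper's methods, reads were trimmed, aligned to hg38 with hisat2 and tested with DESeq2, while the submitters' processing notes name hg19, HISAT2, HTSeq 0.12.4 and DESeq2. The positions in the table overlap GENCODE v44 (GRCh38) for 99.97% of 26990 shared symbols, so GRCh38 was used. Gene models and the use of strand are not given in the sources used here.

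The values per sample deposited by the authors are a signal adjusted to a common library size. Their form is that of edgeR's quantile adjustment at a dispersion of 0.0027. Undoing it gave whole reads for 100% of the 96432 values that reach 10 (tolerance 0.02 reads). The log2 fold change and the p-value and q-value that the authors deposited were not used.

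limma 3.58.1 with a variance trend, two-sided, was run on log2(value + 1) for the 16178 genes kept by filterByExpr of edgeR 4.0.16 (minimum 10 in 3 samples), with Benjamini-Hochberg adjustment over all of them and a threshold of 0.05. The pseudocount of 1 understates changes of genes with low values. Precision is limited by 22621338 to 26130882 reads per sample and 3 samples per group. Alternatives were a pseudocount of 0.1, no filter, at least 10 in every sample, a replicate block, each sample left out, limma without the trend and, on the recovered reads, DESeq2 1.42.0 and the quasi-likelihood test of edgeR under TMM, RLE or upper-quartile scaling. Each other list names up to 4 genes with the largest change among those called, plus genes that overlap a member or share its promoter. The members and lists were chosen with earlier results of these data known. Some genes of the lists are not reported here by name.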

Additional observations from a re-analysis of the deposited data

How the results depend on the processing

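The 9 log2 fold changes were recomputed 135 times under the alternatives, and 129 kept their direction and their side of the threshold. TAPBP was no longer called by limma without the variance trend (log2 fold change -0.24, adjusted p = 0.065), and TAP2 was called without pladienolide B replicate 2 (-0.13, adjusted p = 0.045). TAP1 changed sign without pladienolide B replicate 3 (0.05), and NLRC5 without DMSO replicate 1, DMSO replicate 2 or pladienolide B replicate 2 (-0.03 each); neither was called. With each sample left out in turn, limma log2 fold changes ran from -0.76 to -0.66 for HLA-B, -0.51 to -0.48 for HLA-C, 0.19 to 0.24 for HLA-E, -0.12 to -0.02 for B2M, -0.12 to 0.05 for TAP1, -0.13 to -0.04 for TAP2, -0.31 to -0.20 for TAPBP, -1.12 to -1.05 for ERAP1 and -0.03 to 0.10 for NLRC5. Calls ran from 5 to 6 of the 9 genes, 56 to 64 of the pathway genes and 6568 to 7836 of all genes. The ratio of heavy chains to B2M, as a fraction of that in DMSO, ran from 0.727 to 0.784, and that of immunoproteasome to constitutive subunits from 0.685 to 0.725. The leave-one-out values of these ratios were added after the data were seen. Scaling moved the median log2 fold change of all genes from -0.00422 to at most 0.0168. The samples share replicate numbers in their titles only: the correlations of same-numbered samples were -0.0183, -0.0175 and 0.00261. With the replicate block, 5 of the 9 genes, 65 pathway genes and 7349 genes in all were called, against 5, 67 and 7695 without it, and no call among the 9 genes changed. The split of reads between the HLA genes, and between ERAP1 and CAST, depends on counting settings that are not stated.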
